A study of Arabidopsis thaliana with 6 samples.

Results

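The genes described here are 48 Arabidopsis thaliana genes. They gave almost no reads in wild-type seedlings and a low number in each library from seedlings of a DNA repair double mutant. They were chosen from raw read counts: a summed count of 10 or less over the 3 Col-0 libraries, 40 or more over the 3 zdp-1 ape2-2 libraries, and at least 5 in each mutant library. Of 33489 genes in the deposited tables, 53 met these limits, and 5 of them are left out by name. The counts themselves chose the genes, so their difference between genotypes is described below and not tested.

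The study sequenced polyadenylated RNA from whole seedlings harvested 14 days after the start of growth on plates. It holds 2 groups of 3 libraries, lettered A to C: Col-0, the wild-type accession, and zdp-1 ape2-2, a line with mutant alleles of both ZDP and APE2. ZDP is a DNA 3′ phosphatase that clears blocked ends in base excision repair and in active DNA demethylation, and APE2 belongs to the AP endonuclease family, which acts in the same kind of repair. The labels call both genes knocked out, do not say whether replicates came from separate cultures, and name no treatment.

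Many plant genes are held silent outside their own stage or organ. Seed storage protein genes are active in the maturing embryo and are shut in seedlings by Polycomb and VAL repressor proteins, and floral MADS-box genes are kept off in leaves in a similar way. Other silent genes lie in or near methylated repeats. SOG1, a NAC transcription factor, is the central regulator of the plant response to DNA damage and is known to bind a palindrome of the form CTTNNNNNNNAAG, whereas the RY element CATGCA is bound by B3-domain proteins that control seed genes, and the G-box CACGTG by bZIP factors, among them those of abscisic acid signalling.

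The sequences below are shown because they hold these motifs in front of genes that carry much of what follows: the seed genes CRA1, CRU3, AT2G28490 and PER1, and the neighbouring pair AT5G53230 and AT5G53240. Each is the 300 bases directly before the annotated gene start in the RefSeq sequence of TAIR10.1, written 5′ to 3′ on the gene's strand. Capitals mark RY elements, G-boxes and SOG1 palindromes on either strand. The windows are chr5:17758337-17758636 on the minus strand for CRA1, chr4:14087256-14087555 on the plus strand for CRU3, chr2:12181013-12181312 on the minus strand for AT2G28490, chr1:17780129-17780428 on the plus strand for PER1, chr5:21598548-21598847 on the plus strand for AT5G53230 and chr5:21601181-21601480 on the plus strand for AT5G53240.
CRA1: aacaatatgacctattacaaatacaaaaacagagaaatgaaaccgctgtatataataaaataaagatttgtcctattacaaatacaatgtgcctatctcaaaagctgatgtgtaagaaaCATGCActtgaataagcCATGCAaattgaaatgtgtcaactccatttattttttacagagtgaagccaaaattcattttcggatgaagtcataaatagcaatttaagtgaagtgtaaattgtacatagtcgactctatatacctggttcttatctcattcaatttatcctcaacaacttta
CRU3: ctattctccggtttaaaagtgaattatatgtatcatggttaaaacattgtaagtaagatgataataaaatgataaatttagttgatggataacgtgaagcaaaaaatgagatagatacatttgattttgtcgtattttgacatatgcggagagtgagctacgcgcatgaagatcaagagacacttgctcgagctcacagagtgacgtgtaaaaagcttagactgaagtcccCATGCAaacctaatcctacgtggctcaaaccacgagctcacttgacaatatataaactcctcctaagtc
AT2G28490: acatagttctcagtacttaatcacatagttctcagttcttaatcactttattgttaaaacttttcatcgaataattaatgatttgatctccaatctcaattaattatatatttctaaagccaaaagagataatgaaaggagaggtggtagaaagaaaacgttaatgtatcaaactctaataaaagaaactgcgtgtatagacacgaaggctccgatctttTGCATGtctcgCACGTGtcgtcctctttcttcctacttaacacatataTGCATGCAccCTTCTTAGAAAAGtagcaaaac
PER1: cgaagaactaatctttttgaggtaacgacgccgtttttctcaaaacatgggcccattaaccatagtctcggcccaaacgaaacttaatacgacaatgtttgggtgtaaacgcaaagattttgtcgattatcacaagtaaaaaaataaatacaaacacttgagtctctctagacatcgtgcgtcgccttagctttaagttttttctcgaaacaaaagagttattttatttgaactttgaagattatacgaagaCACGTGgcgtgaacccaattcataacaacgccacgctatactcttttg
AT5G53230: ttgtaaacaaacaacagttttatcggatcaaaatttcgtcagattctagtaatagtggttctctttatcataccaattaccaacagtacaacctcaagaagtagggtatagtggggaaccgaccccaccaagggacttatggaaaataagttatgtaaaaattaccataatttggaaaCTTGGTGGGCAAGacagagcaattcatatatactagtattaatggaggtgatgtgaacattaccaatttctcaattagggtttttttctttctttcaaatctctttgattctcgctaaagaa
AT5G53240: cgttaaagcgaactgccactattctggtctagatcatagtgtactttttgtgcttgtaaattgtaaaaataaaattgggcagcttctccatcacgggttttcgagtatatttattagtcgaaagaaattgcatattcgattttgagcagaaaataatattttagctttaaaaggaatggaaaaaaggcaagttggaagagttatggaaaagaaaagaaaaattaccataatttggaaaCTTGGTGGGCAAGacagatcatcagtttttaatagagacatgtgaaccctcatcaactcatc

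The libraries held between 31190605 and 37241739 counts, so a single read was worth between 0.0262 and 0.0328 CPM, the read count scaled to a common library size, with library sizes scaled by the trimmed mean of M-values. Both targeted genes were still counted in the mutant: ZDP stood at 29.4 ± 1.37 CPM in Col-0 and 17.9 ± 1.43 in the mutant, and APE2 at 8.18 ± 0.866 and 5.75 ± 0.121 (SD, n = 3 each). The log2 fold changes were -0.71 ± 0.05 (SE, edgeR adjusted p = 4.89e-15) and -0.51 ± 0.08 (edgeR adjusted p = 2.65e-06), so both genes were lower in the mutant, though a count over a whole gene does not show whether a transcript is intact. In edgeR's quasi-likelihood test over 21182 genes with enough reads, 43.4% passed an adjusted p below 0.05, 22.2% higher in the mutant and 21.2% lower, and such genes are called higher or lower below. Of the genes called, 51.1% were higher; with library totals as the only scaling 6964 genes were called higher and 2717 lower, or 71.9% higher, as every log2 fold change then shifts up by about 0.06. A list median given below that lies less than 0.06 under 0 is above 0 on that scaling. Without a statement that replicates are separate cultures, these p-values measure the spread between the samples, which may be technical.

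How rare the pattern was can be read from the silent genes alone. In Col-0, 11402 genes had a summed count of 10 or less, and 0.465% of them, the 53 genes above, met the mutant limits. Of the same silent genes, 3828 had any mutant read and 551 had a mutant sum over 10. With the genotypes exchanged, 11007 genes were silent in the mutant and 4 of them, or 0.0363%, met the limits in Col-0: AT1G06957, AT1G59218, AT1G75945 and AT2G23400. The largest of these was AT1G75945, with 152, 155 and 148 counts in Col-0 A, B and C and 2, 1 and 1 in the mutant. The limits are on raw counts, and Col-0 C held the fewest, 31190605, against 37154781 in the smallest mutant library. Fewer reads make it easier for a gene to be silent in Col-0. With counts scaled to the mean library total, 37 genes were found in place of 48, and 4 again with the genotypes exchanged.

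**Figure D1:**
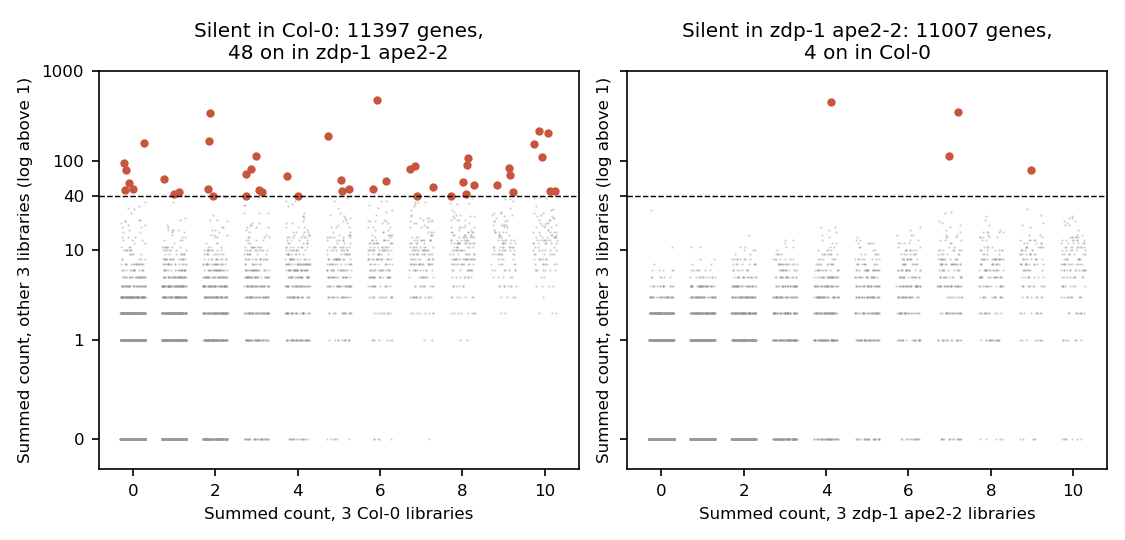
Summed count over the 3 libraries in which a gene is silent (x axis, 0 to 10, points spread sideways for sight) against its summed count over the other 3 (y axis, log above 1), for genes silent in Col-0 (left) and in zdp-1 ape2-2 (right). Red points meet the limits; the dashed line is a sum of 40, above which 48 genes lie on the left, after the 5 genes left out by name, and 4 on the right.

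The word silent is literal for only 6 of the 48 genes, AT4G08691, AT4G25330, AT4G29200, AT5G27340, AT5G41660 and ABCA9, which had no read in any Col-0 library. A further 13 had 1 to 3 Col-0 reads in all and 29 had 4 to 10. The median summed count was 5 in Col-0 and 58.5 in the mutant, where it ranged from 40 to 474. Added up, the 48 genes had 91, 86 and 70 counts in Col-0 A, B and C, and 1428, 1455 and 1460 in the mutant. Every gene's lowest mutant count lay above its highest Col-0 count, which the limits nearly force; of all genes tested, 25.5% had every mutant CPM above every Col-0 CPM.

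Switched on did not mean strongly expressed. The mean mutant level of the 48 genes had a median of 0.513 CPM and a range of 0.351 to 4.16. Per kilobase of exon the median was 0.423 CPM, and 47 of the 48 genes lay below 5.61 CPM per kilobase, the median of the 25913 genes with any mutant read. The exception was AT1G07347, a short non-coding RNA, at 11.5 ± 0.272 CPM per kilobase. The top gene, CRA1, took 10.9% of all mutant reads of the group, and the top 5 took 32.7%. In bulk tissue, a low level in every cell and a higher level in few cells cannot be told apart, for these genes or any other here.

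The limits asked for reads in every mutant library, so some likeness among the mutant libraries was fixed by the choice of genes. The coefficient of variation over mutant A, B and C had a median of 17.8%, from 2.37% for AT1G07347 to 58.5% for AT1G70080, a terpenoid cyclase family gene with 11, 9 and 25 counts. The chi-square per degree of freedom between the mutant libraries has a mean near 1 when reads vary by counting alone. Its median is then below 1, so the medians given here are not to be read against 1. The chosen genes had a median of 0.717, beside 0.772 for 4685 other genes in the same range of mutant sums. Those other genes were not silent in Col-0 and were not held to the limit per library.

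**Figure D2:**
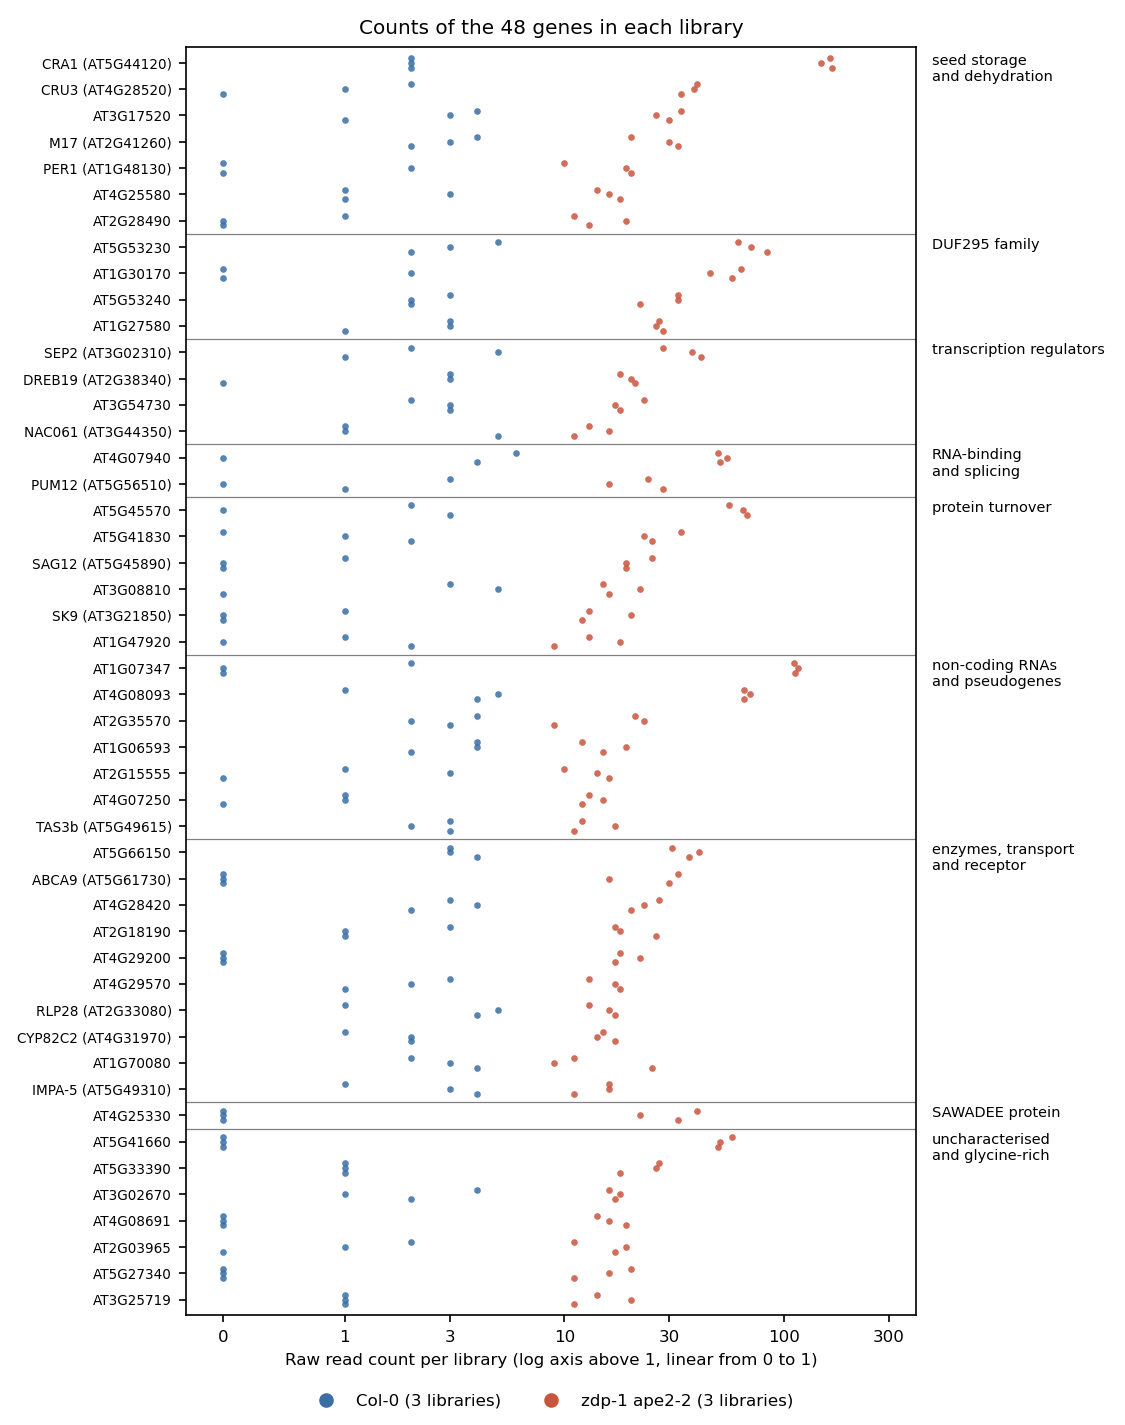
Raw read count in each of the 6 libraries (x axis, log above 1) for the 48 genes (rows), grouped by role; blue points are Col-0 A to C and red points zdp-1 ape2-2 A to C, from top to bottom within a row. For every gene the red points lie to the right of the blue ones, most of them between 10 and 30 counts, and CRA1 and AT1G07347 lie above 100.

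Seed storage and dehydration genes formed the first group by role, with 7 of the 48 genes and summed counts of 14, 14 and 6 in Col-0 A, B and C against 291, 296 and 313 in the mutant. CRA1 (AT5G44120; chromosome 5, start 17756238, 1865 bp of exon), which encodes a cruciferin, a storage globulin that fills protein bodies of the seed, had 2, 2 and 2 counts in Col-0 and 162, 147 and 165 in the mutant. It was the most abundant of the 48 genes in reads, at a ratio of 71.4-fold. The exact 95% interval of 32.6 to 196 covers counting error only. The counts behind such ratios also chose the genes, so no interval here or below is a test. CRU3 (AT4G28520; chromosome 4, start 14087556, 1798 bp), a second cruciferin gene, had 2, 1 and 0 counts in Col-0 and 40, 39 and 34 in the mutant, 34.1-fold (11.4 to 168). The third storage-type gene, the cupin AT2G28490 (chromosome 2, start 12178597, 1780 bp), had 1, 0 and 0 counts against 11, 19 and 13. CRA1 thus reached 2.23 ± 0.139 CPM per kilobase in the mutant, above CRU3 at 0.551 ± 0.0451 and AT2G28490 at 0.212 ± 0.0615 (SD, n = 3), with no overlap between these 3 genes' libraries on that scale.

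The other 4 genes of the group protect cells in the drying seed or under water loss. PER1 (AT1G48130; chromosome 1, start 17780429, 1059 bp), a peroxiredoxin of the embryo and the layer around it, had 0, 2 and 0 counts in Col-0 and 10, 19 and 20 in the mutant. The late embryogenesis abundant (LEA) gene AT3G17520 (chromosome 3, start 5999174, 1274 bp) had 4, 3 and 1 counts against 34, 26 and 30, and M17 (AT2G41260; chromosome 2, start 17206452, 1138 bp), another LEA gene, had 4, 3 and 2 against 20, 30 and 33. AT4G25580 (chromosome 4, start 13056183, 2254 bp), annotated as a CAP160 protein, had summed counts of 5 in Col-0 and 48 in the mutant. PER1 was lowest in mutant A, M17 too, whereas AT3G17520 was highest there, so these genes did not share an order of libraries.

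The seed list, which holds storage proteins, oil body proteins, maturation proteins and their regulators, has 22 genes, of which 3 (CRA1, CRU3 and PER1) are among the 48. Of the rest, 14 were silent in Col-0 by the same limit, and 11 of these had more reads in the mutant, 2 fewer and 1 as many. Together the 14 had 13, 8 and 10 counts in Col-0 A, B and C and 51, 47 and 55 in the mutant. The seed albumin gene SESA1 had no Col-0 read and 26 in the mutant. The oleosin genes OLEO1 and OLEO2, whose proteins coat oil bodies, had 6 and 28, and 2 and 22, and the caleosin gene CLO1 had 0 and 13. Among all 11349 silent genes outside the 48 and the 5 left out, 23.6% had more reads in the mutant and 4.39% had a mutant sum over 10. Of those with a read in any library, 60.9% had more in the mutant, beside 11 of the 13 seed genes with a read (84.6%). CRU2, the remaining cruciferin gene of the list, did not share the pattern of CRA1 and CRU3: it had 2 reads in Col-0 and 1 in the mutant.

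The regulators of the seed programme stayed at a few reads in both genotypes. ABI3 had 1 read over Col-0 and 6 over the mutant, FUS3 had 6 and 12, LEC1 had 2 and 0, and LEC2 had 11 and 8. The 2 seed-list genes with enough reads for a test outside the 48 were the oleosin OLEO4, called higher at a log2 fold change of 0.74 ± 0.13 (SE, edgeR adjusted p = 8.22e-06), and the regulator of oil synthesis WRI1, called lower at -0.18 ± 0.07 (edgeR adjusted p = 0.0404). Of 13 Polycomb and VAL repressors, 2 were called higher (15.4%) and 3 lower (23.1%), near the 22.2% and 21.2% of all genes tested, and the middle value was -0.02 on the log2 scale beside 0.00 over all genes tested. VAL1, a B3 repressor of seed genes, was called lower at -0.18 ± 0.04 (edgeR adjusted p = 0.00131), as was the chromatin remodeller PKL at -0.14 ± 0.03 (edgeR adjusted p = 2.11e-05), and FIE, a Polycomb subunit, at -0.22 ± 0.05 (edgeR adjusted p = 0.000698). The methyltransferase CLF was called higher at 0.14 ± 0.04 (edgeR adjusted p = 0.0028). Whether these shifts bear on the seed genes was not tested.

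**Figure D3:**
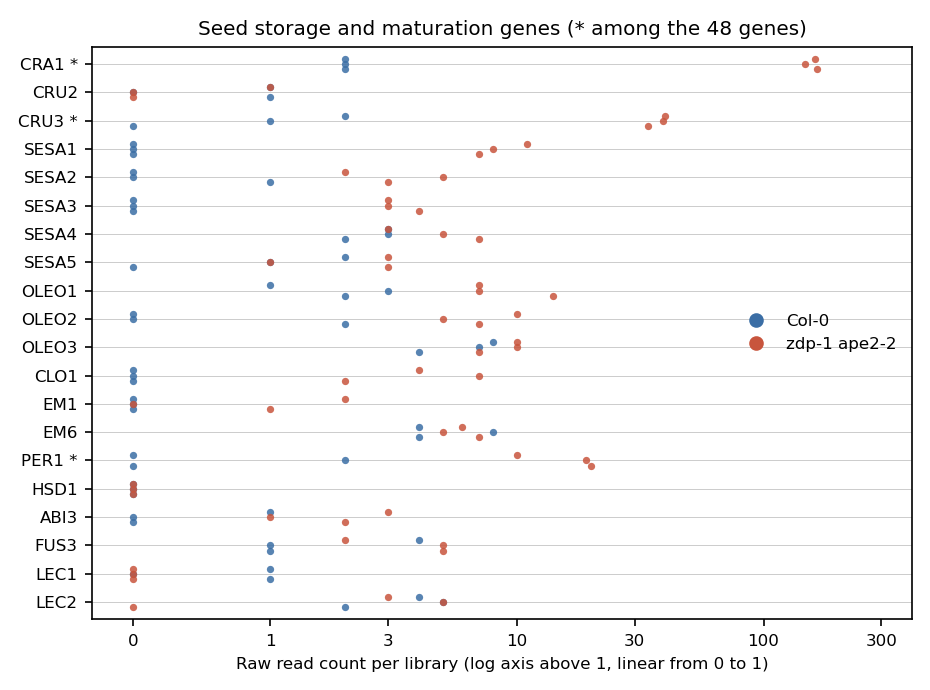
Raw read count in each library (x axis, log above 1) for the 20 genes of the seed list with too few reads for a test or among the 48 (marked with an asterisk); blue points are Col-0, red points zdp-1 ape2-2. CRA1, CRU3 and PER1 stand apart in the mutant, SESA1, OLEO1, OLEO2 and CLO1 follow at 14 counts or fewer, and LEC1, LEC2 and CRU2 have no more reads in the mutant than in Col-0.

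The second group shares a domain of unknown function, DUF295, found in a large plant family many of whose members also carry an F-box, the part of a ubiquitin ligase that chooses its target. It holds 4 of the 48 genes. AT5G53230 (chromosome 5, start 21598848, 1161 bp) had 5, 3 and 2 counts in Col-0 and 62, 71 and 84 in the mutant. AT5G53240 (chromosome 5, start 21601481, 1259 bp) had 3, 2 and 2 against 33, 33 and 22. These 2 genes lie 1473 bp apart on the same strand and are the only pair of the 48 within 20 kb of each other; the next nearest pair, CRU3 and AT4G28420, is 29964 bp apart. AT1G30170 (chromosome 1, start 10607888, 1370 bp) had 0, 2 and 0 counts against 64, 46 and 58, 75.9-fold (20.7 to 632), and AT1G27580 (chromosome 1, start 9589807, 1221 bp), annotated as an F-box protein, had 3, 3 and 1 against 27, 26 and 28.

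The upstream sequences of the pair AT5G53230 and AT5G53240 share a run of 40 bases without a mismatch, shown here with its palindrome in capitals because it is the longest stretch the windows have in common.
Shared run: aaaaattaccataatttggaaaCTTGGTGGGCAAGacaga
The run begins 144 bases before the start of AT5G53230 and 84 bases before that of AT5G53240, and none of the other 300-base windows of 33487 genes holds it. Its 13-base palindrome, which has the SOG1 form, was found on either strand in 4 of those windows. Besides the pair, these belong to AT5G54240, with 55, 63 and 58 counts in Col-0 and 65, 68 and 73 in the mutant, and to AT5G54550, another DUF295 gene, with 1, 1 and 1 against 10, 9 and 7. So 3 of the 4 genes with this palindrome encode DUF295 proteins and were silent in Col-0, while AT5G54240 is of another family and was read in both genotypes. The match was searched after the pair's values were known and says nothing of binding.

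Across the family, 74 genes carry the DUF295 annotation and 54 of them were silent in Col-0. The family was singled out after the 48 genes were known. Of the 16 DUF295 genes tested outside the 48, 5 were called higher and 1 lower, where 22.2% and 21.2% of all genes tested were. The median log2 fold change of the 16 was -0.02, close to that of all genes. The 2 furthest were AT1G30160, at 100 reads in Col-0 and 789 in the mutant with a log2 fold change of 2.83 ± 0.12 (SE, edgeR adjusted p = 3.02e-21), and AT5G55270, at 17 and 117 with 2.61 ± 0.30 (edgeR adjusted p = 2.46e-09). Of the 50 silent DUF295 genes outside the 48, 15 had more reads in the mutant, 7 fewer and 28 as many, 24 of these at 0 in all 6 libraries. Of the 26 with a read, 57.7% had more in the mutant, close to the 60.9% of silent genes at large. By size, 5 of the 50 had a mutant sum over 10, beside 4.39% of silent genes at large. Together the 50 had 44 reads in Col-0 and 146 in the mutant. SDC, a DUF295 gene known as a target of DNA methylation that is active when methylation is lost, had 0, 1 and 1 counts in Col-0 and 8, 5 and 4 in the mutant, short of the limits.

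**Figure D4:**
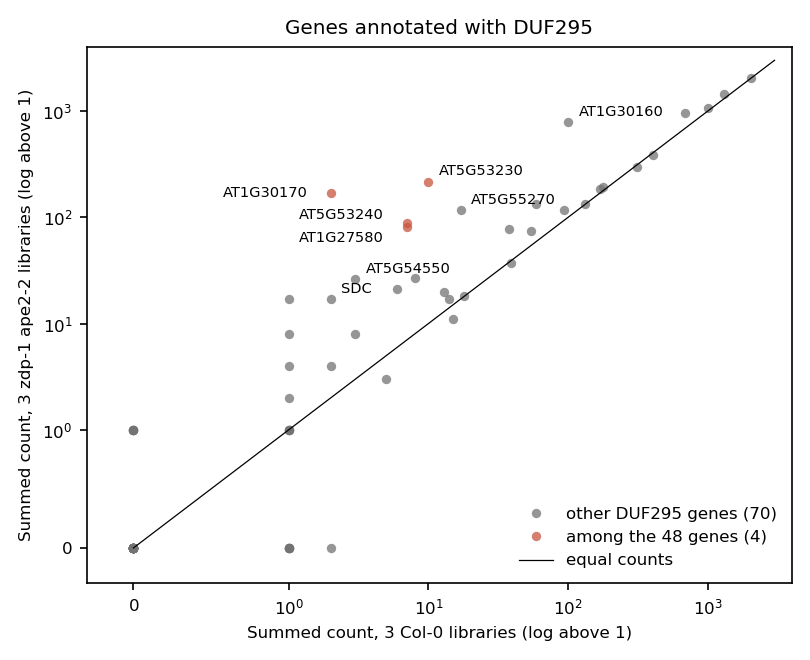
Summed count over Col-0 (x axis) and over zdp-1 ape2-2 (y axis), both log above 1, for the 74 genes annotated with DUF295; the line marks equal counts. The 4 red genes and, among the others, AT1G30160, AT5G55270 and AT5G54550 lie well above the line, while most genes with over 100 counts lie close to it.

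Transcription regulators supplied 4 genes. SEP2 (AT3G02310; chromosome 3, start 464279, 1523 bp), a MADS-box factor that works with other floral factors to specify organs of the flower, had 2, 5 and 1 counts in Col-0 and 28, 38 and 42 in the mutant, 12.2-fold (5.98 to 29.0). NAC061 (AT3G44350; chromosome 3, start 16022575, 1250 bp), a NAC-domain factor, had 1, 1 and 5 counts against 13, 16 and 11. DREB19 (AT2G38340; chromosome 2, start 16067396, 1131 bp), of the family that binds dehydration-responsive elements, rested on summed counts of 6 and 59. AT3G54730 (chromosome 3, start 20259003, 1456 bp), annotated as a transcription repressor, rested on 8 and 58. SEP2 had the highest mutant counts of these 4, with its lowest mutant library at 28 counts and its highest Col-0 library at 5.

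SEP2 did not stand alone among floral genes. The list of floral organ identity genes has 12 members, the flowering signal FT included. All 7 with enough reads for a test besides SEP2 were called higher, beside 22.2% of all genes tested, with a median log2 fold change of 1.07. SEP1, at 8, 4 and 7 counts in Col-0, and AP3, at 15, 10 and 7, passed the low-count filter only with their mutant reads. The count of 7 therefore depends in part on that filter. PI, a petal and stamen factor, rose by 2.77 ± 0.16 (SE, edgeR adjusted p = 1.71e-17), AG, a stamen and carpel factor, by 2.17 ± 0.21 (edgeR adjusted p = 2.42e-11), and SEP3 by 1.07 ± 0.06 (edgeR adjusted p = 3.42e-18). The 3 silent ones were AP1, with 5 reads in Col-0 and 20 in the mutant, SHP2, with 4 and 9, and STK, with 6 and 25. LFY, a regulator upstream of the organ identity genes, went the other way at too few reads for a test, with 21 and 15. Over Col-0, SEP2 had 8 reads in all, its tested relatives SEP1, AP3, AG and PI had 19, 32, 44 and 59, and SEP3 had 894.

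Markers of other organs and states give the setting in which these values stand, and their part in the members' counts was not tested. The counts of calls in each list stand beside 22.2% higher and 21.2% lower of all genes tested. Of the pollen and gamete list, 4 of 8 genes had no read in any library, VGD1 and GEX2 had 1 read in Col-0 and none in the mutant, and GEX1 and HAP2 were both called higher, at 1.12 ± 0.12 and 0.75 ± 0.22 (SE, edgeR adjusted p = 1.19e-09 and 0.00602). Leaf and root markers of the seedling were abundant in both genotypes, with 2 of 10 called higher, 5 lower and a median of -0.14. The photosynthesis genes LHCB1.1, CAB3 and RBCS1A had log2 fold changes of -0.53 ± 0.02, -0.43 ± 0.02 and -0.26 ± 0.02 (edgeR adjusted p = 5.12e-22, 5.58e-20 and 2.79e-13). The 2 called higher were STM at 1.02 ± 0.09 and WOX5 at 0.41 ± 0.17 (edgeR adjusted p = 3.92e-12 and 0.0459). Of 20 DNA damage response genes, 15 were called higher and 3 lower with a median of 1.19. The smallest p-values were those of TSO2, BRCA1 and TK1A, with log2 fold changes of 2.15 ± 0.03, 2.63 ± 0.04 and 2.22 ± 0.03 (edgeR adjusted p = 2.37e-40, 1.36e-36 and 2.17e-36). Of 20 genes of DNA methylation and silencing, 6 were called higher and 7 lower with a median of -0.05, and the demethylase gene ROS1 fell by 1.04 ± 0.03 (edgeR adjusted p = 6.02e-26). The next smallest p-values were those of MET1, called higher at 0.52 ± 0.03, and IBM1, called lower at -0.65 ± 0.04 (edgeR adjusted p = 8.17e-19 and 2.35e-16).

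A loose group placed under protein turnover made up 6 of the 48. SAG12 (AT5G45890; chromosome 5, start 18613239, 1306 bp), a cysteine protease that is the classic marker of leaf senescence, had 1, 0 and 0 counts in Col-0 and 25, 19 and 19 in the mutant, 57.0-fold with a wide interval of 9.86 to 2285. Among the other 13 genes of the senescence list, all of them tested, 10 were called higher and none lower, with a median of 0.32. Over all genes tested, 22.2% were called higher and 21.2% lower. SAG13 rose by 1.28 ± 0.06 (SE, edgeR adjusted p = 1.18e-19), SAG14 by 0.96 ± 0.07 (edgeR adjusted p = 4.25e-15) and SAG101 by 0.84 ± 0.06 (edgeR adjusted p = 1.59e-14). SAG12 therefore had the lowest Col-0 count of its list and was, in the mutant, still at 0.552 ± 0.0894 CPM beside 16.8 ± 0.244 for SAG13.

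The others placed in this group were AT5G45570, SK9, AT3G08810, AT5G41830 and AT1G47920. The product names of AT3G08810, AT5G41830 and AT1G47920 give a repeat or superfamily only, so a role of these genes in turnover is assumed. AT5G45570 (chromosome 5, start 18471498, 3051 bp), of the Ulp1 family of proteases that remove the small modifier SUMO, had 2, 0 and 3 counts against 56, 65 and 68. SK9 (AT3G21850; chromosome 3, start 7697033, 584 bp), a SKP1-like subunit of F-box ubiquitin ligases, had 1, 0 and 0 against 13, 20 and 12. The leucine-rich RNI-like genes AT5G41830 (chromosome 5, start 16743636, 1703 bp) and AT1G47920 (chromosome 1, start 17661095, 1201 bp) had 0, 1 and 2 against 34, 23 and 25, and 1, 0 and 2 against 13, 18 and 9. AT3G08810, a kelch-repeat gene at start 2675470 of chromosome 3, rested on sums of 8 and 53. SK10, a SKP1-like gene at one of the places similar in sequence to SK9, had 4 reads in Col-0 and 18 in the mutant.

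Non-coding RNAs and pseudogenes gave 5 and 2 of the genes. AT1G07347 (chromosome 1, start 17341893, 259 bp), annotated as a long non-coding RNA, had 2, 0 and 0 counts in Col-0 and 111, 116 and 112 in the mutant, 153-fold (42.1 to 1271). The pseudogene AT4G08093 (chromosome 4, start 4990153, 864 bp) had 1, 5 and 4 counts against 66, 70 and 66. TAS3b (AT5G49615; chromosome 5, start 20134200, 484 bp), a precursor of trans-acting small RNAs that act on auxin response factors, was near the lower limit with sums of 8 and 40. AT4G07250 and AT2G15555 also had mutant sums of 40, AT1G06593 had 46, and AT2G35570, a pseudogene of a serine protease inhibitor, had 53. In AT2G35570 mutant C, at 9 counts, was well below A and B at 21 and 23. AT1G07347 and AT4G08093 were the steadiest of these in the mutant, with coefficients of variation of 2.37% and 3.38%.

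Enzymes, transporters and a receptor formed the widest group, with 10 genes and mutant sums from 43 to 109. AT5G66150 (chromosome 5, start 26438839, 3365 bp), a glycosyl hydrolase of family 38 and the longest of the 48 genes, had 3, 3 and 4 counts in Col-0 and 31, 41 and 37 in the mutant. ABCA9 (AT5G61730; chromosome 5, start 24803427, 3031 bp), a lipid transporter of the ABC family, had no Col-0 read and 33, 16 and 30 in the mutant. That is 23.8-fold against a floor of 3 counts over the Col-0 group, a ratio given without an interval. AT4G29200, annotated as related to beta-galactosidase, had none either and 57 in all in the mutant. The others were the P-loop ATPase gene AT2G18190 with mutant sum 61, the tyrosine transaminase gene AT4G28420 with 70, the cytidine deaminase gene AT4G29570 with 48, the receptor-like protein gene RLP28 and the cytochrome P450 gene CYP82C2 with 46 each, AT1G70080 with 45 and IMPA-5, an importin alpha of nuclear import, with 43.

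A splicing-related gene, an RNA-binding protein and a SAWADEE protein come from RNA and chromatin biology. AT4G07940 (chromosome 4, start 4792453, 640 bp), annotated as similar to the splicing factor CWC22, had 6, 0 and 4 counts in Col-0 and 50, 55 and 51 in the mutant. PUM12, of the Pumilio family that binds messenger RNA, had sums of 4 and 68. AT4G25330 (chromosome 4, start 12957834, 798 bp) carries a SAWADEE domain, a fold known from the Arabidopsis protein SHH1, which reads histone methylation in RNA-directed DNA methylation. It had no Col-0 read and 40, 22 and 33 counts in the mutant, 28.6-fold against the same floor, again without an interval.

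The remaining 7 genes have no described function or are named for glycine-rich sequence. AT5G41660 (chromosome 5, start 16656708, 1551 bp) was highest, with no Col-0 read and 58, 51 and 50 counts in the mutant, 47.9-fold against the floor of 3 without an interval. AT4G08691 and AT5G27340, also without a Col-0 read, had mutant sums of 49 and 47. AT5G33390 (chromosome 5, start 12661708, 1519 bp), a glycine-rich gene, had 1, 1 and 1 counts against 27, 26 and 18, and AT3G02670, of the same kind, rested on sums of 7 and 51. AT2G03965 had 47 and AT3G25719 had 45 in the mutant. The word uncharacterized or hypothetical stands in the product of 8 of the 48 (16.7%), of 13.7% of the genes silent in Col-0 and of 8.84% of all genes.

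The limits cut through a continuous range of counts. Just inside by mutant sum were 5 genes at 40, AT1G47920, AT2G15555, NAC061, AT4G07250 and TAS3b, and just outside were DRP4C, AT3G03670 and AT5G18937 at 39, with 18, 11 and 10 mutant counts in DRP4C, a dynamin-related gene. Just inside by Col-0 sum were 6 genes at 10, AT5G53230, AT4G08093, AT4G07940, AT5G66150, AT1G06593 and RLP28. Just outside at 11 were AT1G66320, AT3G21380 and AT3G41762, and the last of these had 6, 4 and 1 counts in Col-0 and 100, 114 and 91 in the mutant. That sum of 305 is exceeded within the 48 by CRA1 and AT1G07347 alone, so a gene 1 read over the Col-0 limit can have more mutant reads than nearly all genes within it.

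The 48 genes were longer and more often protein-coding than silent genes at large. Raw counts grow with transcript length, so the limits themselves favour long genes. Protein-coding genes were 41 of the 48, or 85.4%, beside 55.0% of the 11354 other genes silent in Col-0 and 81.9% of all genes. The median exon length was 1290 bp, from 221 to 3365, beside 483 bp for other silent genes and 1347 bp for all. Among protein-coding genes only, the medians were 1374, 812 and 1552 bp. A single exon block was found in 29.2% of the 48, in 58.8% of other silent genes and in 32.1% of all genes. GC content of exons was close, with medians of 42.6%, 40.8% and 41.0%.

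The genes were spread over the 5 chromosomes, with 7, 8, 8, 11 and 14 on chromosomes 1 to 5. Chromosome 1 held 14.6% of them beside 26.5% of other silent genes and 26.6% of all genes, and chromosome 4 held 22.9% beside 14.6% and 15.1%. Within 3 Mb of the window of 1 Mb with the fewest exon bases, a stand-in for the centre of the chromosome, lay 10 of the 48, or 20.8%. That share was 21.3% for other silent genes and 13.1% for all genes. A pseudogene locus without a transcript lay within 2 kb of 8 of the 48 (16.7%), against 10.05% of other silent genes and 6.09% of all genes. No test was made of any of these shares.

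In the 300-base windows, the G-box was found for 7 of the 48 genes, or 14.6%, against 3.73% of other silent genes and 6.39% of all genes. It lay in front of AT3G17520, PER1, AT4G25580 and AT2G28490, all of the seed and dehydration group, and of AT5G33390, AT5G41830 and AT4G07250. The RY element was found for 11 genes, or 22.9%, against 12.4% and 10.6%. CRA1 held 2 copies, CRU3 held 1, and AT2G28490 held 3, the last 2 of them overlapping, as the capitals in the sequences above show. Other genes with an RY element were AT1G30170, AT5G41660, AT4G25330, SEP2, AT5G41830, AT4G28420, PUM12 and SK9.

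The SOG1 palindrome was found for 9 genes, or 18.8%, against 12.7% of other silent genes and 11.5% of all genes. They were the pair AT5G53230 and AT5G53240, SEP2, AT2G18190, AT4G25580, AT4G29570, AT1G06593, AT2G28490 and AT1G47920. The W-box core TTGAC, bound by WRKY factors, was found for 56.3%, against 48.3% and 49.8%, and the E2F-like motif TTCCCGC for none, against 1.11% and 1.28%. All 5 motifs were searched on both strands, and a palindrome can overlap an RY element or W-box. A match shows that the letters are present and no match that they are absent from this window. No test was made of the shares.

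Genes beside the 48 were not chosen by the rule, and those with enough reads were tested. The nearest other gene on each side gave 94 different neighbours at a median gap of 767.5 bp, 36 of them silent in Col-0 (38.3%, against 34.0% of all genes). Of the 53 that were tested, 18 were called higher (34.0%, against 22.2% of all genes tested) and 11 lower (20.8%, against 21.2%). Their median log2 fold change was 0.00, the same as for all genes tested. A rise of at least 2-fold was called for 6 of the 53, or 11.3%, against 2.51% of all genes tested and 2.31% of the 21139 tested outside the 48. Most neighbours therefore moved little, and a few moved far. The low-count filter asks for reads in 1 genotype only, so a neighbour low in Col-0 was tested only if it was high in the mutant. That holds for AT1G32575, AT5G49305 and NSP2, at 0.124, 0.216 and 0.255 CPM in Col-0, which are among those called at 2-fold or more. The shares of all genes tested rest on the same filter.

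Of the 6 neighbours called higher by at least 2-fold, 4 are of the same family as the gene beside them. AT2G18193, a P-loop ATPase gene 1541 bp from AT2G18190, had 436 reads in Col-0 and 4028 in the mutant, a log2 fold change of 3.06 ± 0.06 (SE, edgeR adjusted p = 3.05e-33). ABCA10, 486 bp from ABCA9, had 145 and 1301, or 3.02 ± 0.10 (edgeR adjusted p = 3.48e-25). AT1G30160, the DUF295 gene named above, overlaps AT1G30170 on the other strand. AT5G49305, annotated as an importin alpha subunit and 366 bp from IMPA-5, had 22 and 52, or 1.08 ± 0.35 (edgeR adjusted p = 0.0104). In all 4 pairs the neighbour had enough reads for a test and more mutant reads than the silent gene, though AT5G49305, with 52 against 43 for IMPA-5, was close to it.

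The other 2 were AT1G32575 and NSP2. AT1G32575 shares 56.4% of its exon bases with other genes, AT1G06593 among them, and had 12 and 69 reads, or 2.34 ± 0.43 (SE, edgeR adjusted p = 1.98e-05), so these reads and those of AT1G06593 may be partly the same. NSP2, a nitrile specifier of glucosinolate breakdown 834 bp from RLP28, had 26 and 63, or 1.12 ± 0.32 (edgeR adjusted p = 0.00368). CRA1's tested neighbours did not rise: ABCI21, 470 bp away, was called lower at -0.23 ± 0.04 (edgeR adjusted p = 1.12e-05), and FLA13 stood at -0.02 ± 0.03 (edgeR adjusted p = 0.602).

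**Figure D5:**
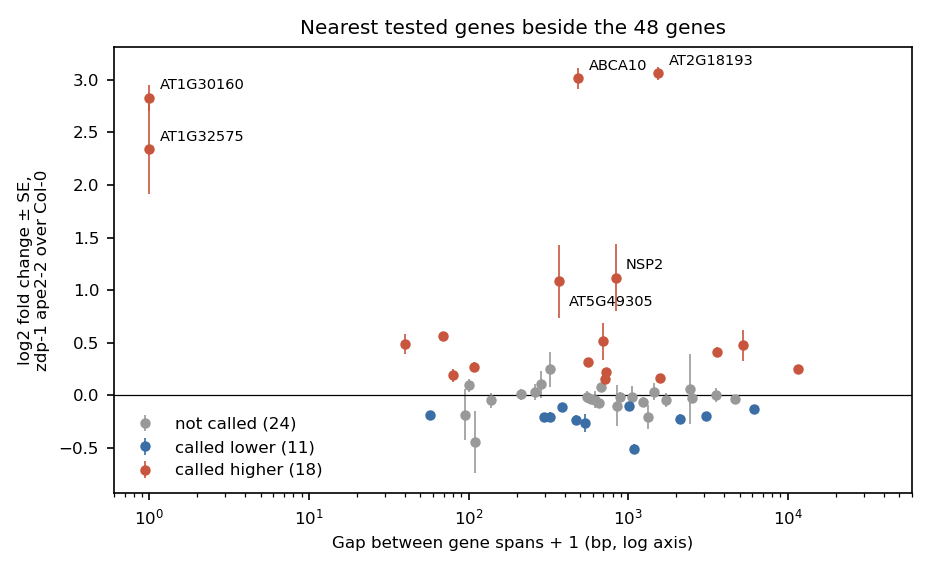
Log2 fold change of the 53 tested neighbours (y axis, zdp-1 ape2-2 over Col-0, bars ± SE) against the gap between neighbour and silent gene (x axis, bp + 1, log axis). Red points are the 18 called higher, blue points the 11 called lower and grey points those not called; 6 stand at 1 or above on the log2 scale and the others lie close to 0.

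For some of the 48 genes the reads cannot be placed with certainty. Stretches of at least 90% identity elsewhere in the genome covered at least 50% of the exon bases of 6 genes: SK9 at 99.1%, AT5G45570 at 98.5%, CYP82C2 at 95.7%, AT1G27580 at 91.1%, AT3G54730 at 90.8% and AT5G41830 at 68.1%. At 95% identity the cover was 98.5% for AT5G45570, 90.8% for AT3G54730 and 0% for SK9, CYP82C2, AT1G27580 and AT5G41830. A further 9 genes had 10% to 50% covered at 90% identity, AT4G07940 the most at 48.6%, or 36.7% at 95% identity. How reads that align to several places were counted is not given in the sources used here, so the values of genes with such copies are uncertain. Exons of 5 genes were overlapped by another gene by 10% or more: AT1G06593 by 44.6%, AT3G02670 by 32.9%, AT2G03965 by 28.7%, DREB19 by 22.8% and AT2G35570 by 12.9%. Of the leading genes, CRA1, CRU3, AT1G07347, AT5G53230 and AT5G41660 are neither among those 6 nor among those 5. CRA1 and AT5G41660 had stretches of at least 90% identity over 3.91% and 3.35% of their exon bases. AT1G30170 and its neighbour AT1G30160 overlap on opposite strands by 4.16% of the exon bases of AT1G30170, and whether the counting used strand is not given.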

How the data were processed

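The authors deposited a raw read count per gene for each of the 6 libraries, with gene coordinates and exon length, neither normalised nor pooled. The submitters' processing notes name STAR and the build TAIR10; the counting tool, its strand setting and the treatment of reads with several alignments are not given in the sources used here. Groups and letters come from the sample titles.

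All 33489 identifiers matched locus tags of the RefSeq TAIR10.1 annotation, 33297 with the same start and end; names, classes and sequences come from there. No promoter table was at hand, so the 300 bases before each start were cut from that genome, instead of the planned reference window. Copies were searched with BLAST 2.17.0 in stretches of at least 50 bases.

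Tests used edgeR 4.0.16 (R 4.3.3; quasi-likelihood F test, two-sided, filterByExpr, TMM, genotype only, Benjamini-Hochberg over 21182 genes). CPM uses TMM library sizes. Fold ratios compare summed counts over summed library sizes, with exact 95% intervals that cover counting error only. The same counts chose the genes, so these intervals are no test of a difference. Genes without a Col-0 read are set against a floor of 3 Col-0 counts, and that ratio is not a lower bound. Of the 48 genes, 43 passed the low-count filter, through the genotype in which they are high, so no count over them is used. AT2G35570, PER1, AT1G70080, AT1G47920 and AT2G15555 did not pass it. Other tested genes that were low in Col-0, such as SEP1, AT5G55270 and AT1G32575, passed the filter in the same way. Scripts were tested on simulated counts.

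Genes are named by rule: the 15 highest mutant sums, those in a gene list, in a shared family or near a threshold get counts per library; neighbours called at 2-fold or more; and per list up to 3 called genes with the smallest p. CLF, STM, WOX5, SDC, the DUF295 genes outside the 48, the silent genes of the lists, the genes with the shared palindrome and the neighbours of CRA1 were named after their values were seen. The 48 genes and the gene lists were chosen with earlier results of these data known. Roles were read from the product names after the genes were known. The letters A to C were not used to pair the samples. Deviations of same-lettered libraries correlated at -0.02, 0.07 and 0.00, and those of other pairs at -0.08 to 0.08. These values cannot show whether same-lettered samples were grown or prepared together.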

Additional observations from a re-analysis of the deposited data

How the results depend on the processing

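The number of genes found depended on the limits more than on the libraries. A Col-0 limit of 5 gave 25 genes in place of 48, a limit of 20 gave 127, and a mutant minimum of 80 gave 17. For the reverse pattern, a limit of 5 gave 1 gene in place of 4 and a limit of 20 gave 10. Scaling counts to the mean library total gave 37 genes, and 4 for the reverse pattern. Leaving out each library in turn, with the limits scaled to the libraries left, gave 44 to 54 genes, of which 40 to 48 were among the 48. Leaving out the 5 genes with exons overlapped by 10% or more left 43. Leaving out the 6 with copies over at least 50% of their exon bases left 42.

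Over all genes tested, library totals in place of TMM lowered the number called lower from 4498 to 2717. The other settings tried, DESeq2 1.42.0 and no low-count filter among them, kept every count of calls within 1.5 times. With a replicate block, 18 neighbours were called higher and 11 lower, as without it, and 4830 of all genes were called higher and 4620 lower. With each library left out, 16 to 19 neighbours were called higher and 10 or 11 lower. A single Col-0 read is worth about 0.03 CPM, so a Col-0 level below that of a few reads per group could not be resolved.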
